A study of Mus musculus with 9 samples.

Results

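The MYB and MYC genes encode 2 families of transcription factors. Their chromatin was read in early blood cells from mouse bone marrow, with the gene for the chromatin protein DEK intact or deleted. The 6 members were Myb, Mybl1, Mybl2, Myc, Mycn and Mycl, chosen by name out of 21887 protein-coding mouse genes. Each was read over its RefSeq span plus 100 kb on either side. All mice were C57BL/6 and 12 weeks old (3 months by the sample label). Control mice (fl) carried the floxed Dek alleles without Cre, Dek fl/fl. Deleted mice (cKO) carried Dek fl/fl with Tie2-Cre, a Cre expressed in endothelial and blood lineages, so the deletion is not restricted to the sorted cells.

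CUT&Tag, in which a transposase tethered to an antibody cuts and tags nearby DNA, gave 1 peak list for each of 9 libraries. DEK was profiled in fl haematopoietic stem cells (HSC, the CD150+ and CD48- part of the LSK gate, about 20000 cells) in 3 libraries. H3K9ac was profiled in HSC, and H3K27ac and H3K4me3 in the whole LSK gate (lineage-negative, Sca-1+ and c-Kit+, about 50000 cells), with 1 fl and 1 cKO library each. The labels do not say how many mice went into a library. With 1 library per genotype and mark, no difference between fl and cKO has a replicate check and no test was possible.

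MYB proteins bind DNA through repeats of a helix-turn-helix type. Myb itself is needed for adult blood formation and is high in progenitors, Mybl1 is best known from the testis, and Mybl2 acts in most dividing cells, where it works with the MuvB complex at cell cycle genes. MYC proteins bind E-boxes as dimers with MAX and raise genes of growth and ribosome production. Myc and Mycn act in stem and progenitor cells of the blood, and Mycl is better known from dendritic cells, nerve and lung. H3K4me3 marks active or poised promoters, and H3K27ac and H3K9ac mark active promoters and enhancers.

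RefSeq promoter entries (GRCm38.p6, the mm10 coordinates) matched 4 of the 6 genes, and the 250 bases before the start are shown because the H3K27ac results turn on these starts. Myb and Mybl2 had an H3K27ac peak within 1 kb of the start in the cKO list only, and Mycn and Mycl had one in both lists. Capitals mark TTGGCG, the core of many E2F sites, read on either strand.
Myb, chr10:21160985-21161234, minus strand: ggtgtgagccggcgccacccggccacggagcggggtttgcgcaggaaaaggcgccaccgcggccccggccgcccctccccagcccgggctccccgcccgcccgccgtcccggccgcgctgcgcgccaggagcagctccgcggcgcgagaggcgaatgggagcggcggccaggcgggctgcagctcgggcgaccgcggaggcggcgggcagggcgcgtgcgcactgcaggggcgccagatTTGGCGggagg
Mybl2, chr2:163054385-163054634, plus strand: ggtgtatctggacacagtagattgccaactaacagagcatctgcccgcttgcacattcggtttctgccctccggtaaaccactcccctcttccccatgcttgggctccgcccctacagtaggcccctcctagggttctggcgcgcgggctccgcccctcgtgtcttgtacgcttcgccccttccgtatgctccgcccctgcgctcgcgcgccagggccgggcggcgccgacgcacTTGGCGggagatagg
Mycn, chr12:12941837-12942086, minus strand: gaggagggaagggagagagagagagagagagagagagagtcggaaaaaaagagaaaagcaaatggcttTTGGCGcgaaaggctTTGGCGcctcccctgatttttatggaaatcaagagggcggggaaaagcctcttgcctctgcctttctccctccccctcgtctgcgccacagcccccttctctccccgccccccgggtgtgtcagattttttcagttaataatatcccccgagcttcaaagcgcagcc
Mycl, chr4:122995681-122995930, plus strand: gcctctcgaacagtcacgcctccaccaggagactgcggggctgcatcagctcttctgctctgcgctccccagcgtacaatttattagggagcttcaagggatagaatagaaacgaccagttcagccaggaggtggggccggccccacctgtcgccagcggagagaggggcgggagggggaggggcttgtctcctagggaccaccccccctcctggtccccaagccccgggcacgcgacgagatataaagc

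TTGGCG occurred once in Myb, 6 to 11 bases before the start, and once in Mybl2, 10 to 15 bases before it. Mycn had it 2 times and Mycl 0 times. Of the 21263 promoter entries of protein-coding genes in the same table, 7.09% held these letters within the same distance. The E-box CACGTG, found in 6.63% of entries, was in none of the 4. GGGCGG, a GC box, was in all 4 (4 times in Mybl2, 3 in Myb, 2 in Mycn and 1 in Mycl) and in 42.6% of entries. The MYB core AACNG occurred 2 times each in Mybl2 and Mycl, 1 time in Mycn and 0 times in Myb, and in 73.1% of entries. G and C made up 81.2% of the Myb window, 65.6% of Mybl2, 63.6% of Mycl and 54.8% of Mycn, against a median of 55.6% over all entries. The H3K27ac peak of the cKO list covered all 250 bases shown for Myb, 127 for Mybl2 and 27 for Mycl. It covered 0 for Mycn, whose peaks began just inside the gene.

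H3K4me3 was present at 5 of the 6 genes in both genotypes, and Mycl was without it in both. The background was 42.9% of all protein-coding genes with an H3K4me3 peak within 1 kb of the start in both lists, 2.76% in fl only and 1.62% in cKO only. Peaks carry a fold enrichment and a −log10 q that are the authors' own values within 1 list, so they are read here only by rank within that list, where rank 1 has the highest −log10 p. For Myc and Mybl1 the start was taken as either annotated end of the gene.

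Myc had the highest-ranked H3K4me3 of the 6 genes in both lists, and the most bases covered. In fl, a peak of 1810 bp over the gene (chr15:61986416-61988225, rank 356 of 10514, fold 5.90, −log10 q 78.4) stood next to a peak of 1109 bp over the 5′ end (rank 2634, fold 4.27). In cKO a single peak of 2659 bp (chr15:61985036-61987694) held rank 684 of 10159, at fold 5.53 and −log10 q 53.1. That peak was the 13th widest of its list, where the median width was 750 bp. The bases covered at Myc were 2919 in fl and 2659 in cKO, so the single cKO peak was not a wider mark than the fl pair.

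Mycn had 1 broad H3K4me3 peak in each list, inside the gene from its start. It was 2001 bp wide in fl (chr12:12939809-12941809, rank 3520 of 10514, fold 5.30) and 1952 bp wide in cKO (rank 4464 of 10159, fold 4.80). By width these were the 139th and the 124th peak of their lists. At Mycn, as at Myc, width was high and fold was low: 92.6% of the fl list lay at or above the Mycn peak by fold.

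Myb carried H3K4me3 over its start and a second block within the first 3 kb of the gene. In fl these were peaks of 1567 bp (chr10:21159816-21161382, rank 5024 of 10514, fold 4.78, −log10 q 25.3) and 1141 bp (rank 5031, fold 4.77). In cKO the start peak was 882 bp wide (chr10:21160525-21161406, rank 3269 of 10159, fold 5.79, −log10 q 28.2), and the second block was called as 2 peaks of 425 and 318 bp (ranks 5290 and 9087). The mark was thus narrower in cKO while the start peak ranked higher in its list. The cKO peaks covered 0.563 of the fl length at the start and 0.651 in the second block. Over the 9410 H3K4me3 regions shared between the lists the median ratio was 0.956, and 2.39% of them had a smaller ratio than the Myb start.

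Mybl1 and Mybl2 had H3K4me3 peaks nearer to the middle of the list by fold than those of Myb, Myc and Mycn. At Mybl1 the peak was 1288 bp wide in fl (chr1:9699780-9701067, rank 4877, fold 9.38) and 979 bp in cKO (rank 5573, fold 8.48). At Mybl2 it was 627 bp in fl (chr2:163054518-163055144, rank 5997, fold 10.0) and 545 bp in cKO (rank 5990, fold 9.97). The median fold of the lists was 9.37 in fl and 9.04 in cKO, so both genes had peaks of typical fold. All 5 genes with the mark had fewer bases covered in cKO, with ratios from 0.563 to 0.976, and 62.5% of all shared regions did.

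**Figure D1:**
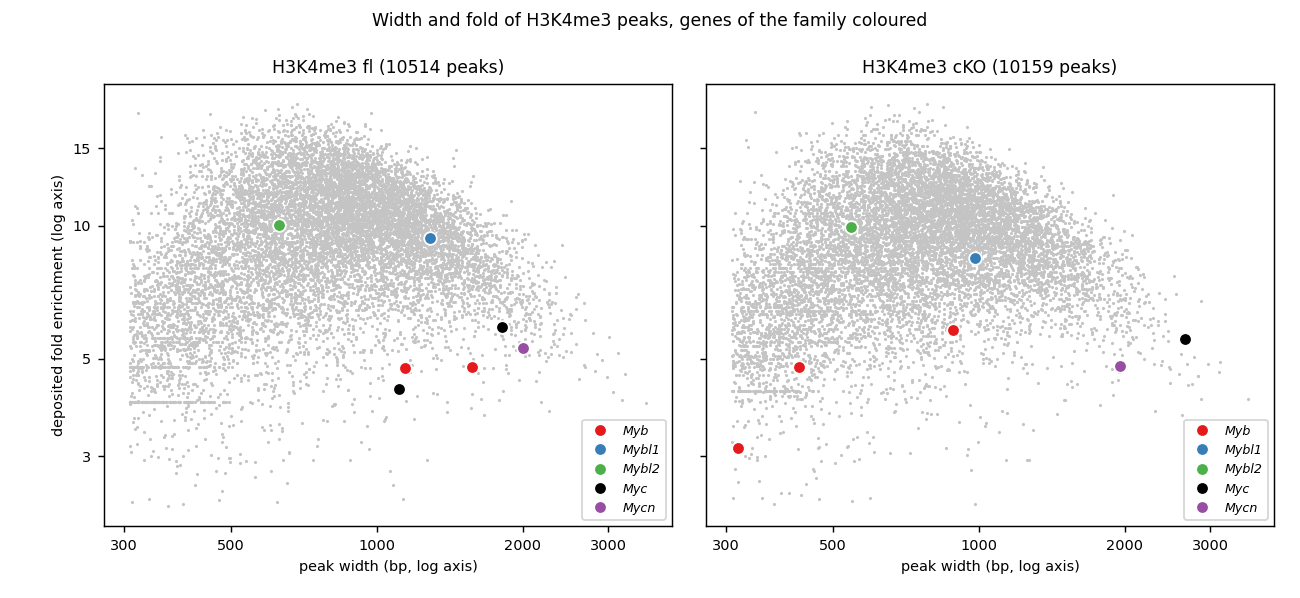
Each point is an H3K4me3 peak, by width in bp and by the deposited fold (both log axes), in the fl list (left) and the cKO list (right). Coloured points lie over the promoter or body of a member. Myb, Myc and Mycn lie below the main cloud at folds of 3.14 to 5.90, Mybl1 and Mybl2 within it at 8.48 to 10.0, and Mycl has no peak.

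H3K27ac over the 6 genes was found in more places in the cKO than in the fl list. In fl, 3 genes had a peak within 1 kb of the start (Mybl1, Mycn and Mycl), and in cKO the same 3 plus Myb and Mybl2. The background was 22.6% of all genes in fl and 43.9% in cKO. By state, 3 members were in both lists (22.3% of all genes), 2 in cKO only (21.7%) and 0 in fl only (0.361%). Among the 9399 genes with H3K4me3 in both lists, 33% had H3K27ac at the start in cKO only, 48.9% in both, 0.532% in fl only and 17.6% in neither, so 2 of the 5 such members is near that share. The fl list held 10494 peaks and the cKO list 16331, and their depth is unknown.

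Myb had 0 H3K27ac peaks in fl, at the start, in the gene or within 100 kb. In cKO it had 1 at the start (chr10:21160698-21161396, 699 bp, fold 6.90, −log10 q 12.1, rank 11358 of 16331) and 1 inside the gene (chr10:21158984-21159429, fold 5.10, rank 15304). Each lay on an H3K4me3 block of both lists. Both ranked below the 10494 strongest cKO peaks, the number in the fl list, so that with lists of equal length Myb had none in either.

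Mybl2 had the highest-ranked cKO-only peak of the 6 genes. It lay over the start (chr2:163054508-163054954, 447 bp, fold 12.98, −log10 q 22.6, rank 6318 of 16331), on the H3K4me3 peak of both lists. This call held with lists of equal length. The neighbour Ift52, a gene for intraflagellar transport, had H3K27ac at its start, 36.6 kb from Mybl2, in both lists (ranks 5286 of 10494 and 8061 of 16331), and there the 2 genotypes did not differ in presence.

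Myc had 0 H3K27ac peaks in its fl window. The cKO list held a peak inside the gene, 1523 bp from the 5′ end (chr15:61986864-61987321, 458 bp, fold 10.4, −log10 q 17.4, rank 8555), within the H3K4me3 peaks of both lists. It lay outside the 1 kb around the start and inside 2 kb, so Myc counts as without H3K27ac at the start by the first width and as cKO only by the second. With the gene body included, 3 members were cKO only (22.5% of all genes), 3 in both (27.2%) and 0 in fl only (0.754%), and the Myc peak was kept with lists of equal length.

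Mybl1 and Mycl had the mark in both lists, with a wider peak in cKO. The Mybl1 peak was 303 bp in fl (chr1:9700489-9700791, rank 6410 of 10494, fold 7.91) and 957 bp in cKO (chr1:9699978-9700934, rank 7371 of 16331, fold 10.4). The Mycl peak was 420 bp in fl (chr4:122996472-122996891, rank 10183 of 10494, fold 5.51, −log10 q 4.69) and 962 bp in cKO (chr4:122995904-122996865, rank 12421 of 16331, fold 7.48). The ratios of covered length, 3.16 at Mybl1 and 2.29 at Mycl, compare with a median of 1.20 over the 9092 shared H3K27ac regions. Of those, 98.8% had a smaller ratio than Mybl1 and 94.4% a smaller one than Mycl.

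Mycl was acetylated without H3K4me3 in either list. Of the 4874 genes with H3K27ac at the start in both lists, 3.04% lacked H3K4me3 there in both. Its fl peak was near the foot of the list and was lost at a −log10 q of at least 5, which left Mycl in cKO only.

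Mycn had peaks of nearly equal width in the 2 lists, 301 bp in fl (chr12:12941522-12941822, rank 8800 of 10494, fold 6.45) and 325 bp in cKO (chr12:12941505-12941829, rank 11337 of 16331, fold 8.50). Both sat at the 5′ edge of the broad H3K4me3 peak. With the cKO list shortened to the 10494 strongest peaks, Mycn and Mycl were fl only, Mybl1 was in both and Mybl2 in cKO only. Over all genes, 11.4% were then cKO only and 1.92% fl only. The genotype call at Myb, Mycn and Mycl therefore depended on the list length, and those at Mybl1 and Mybl2 did not.

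**Figure D2:**
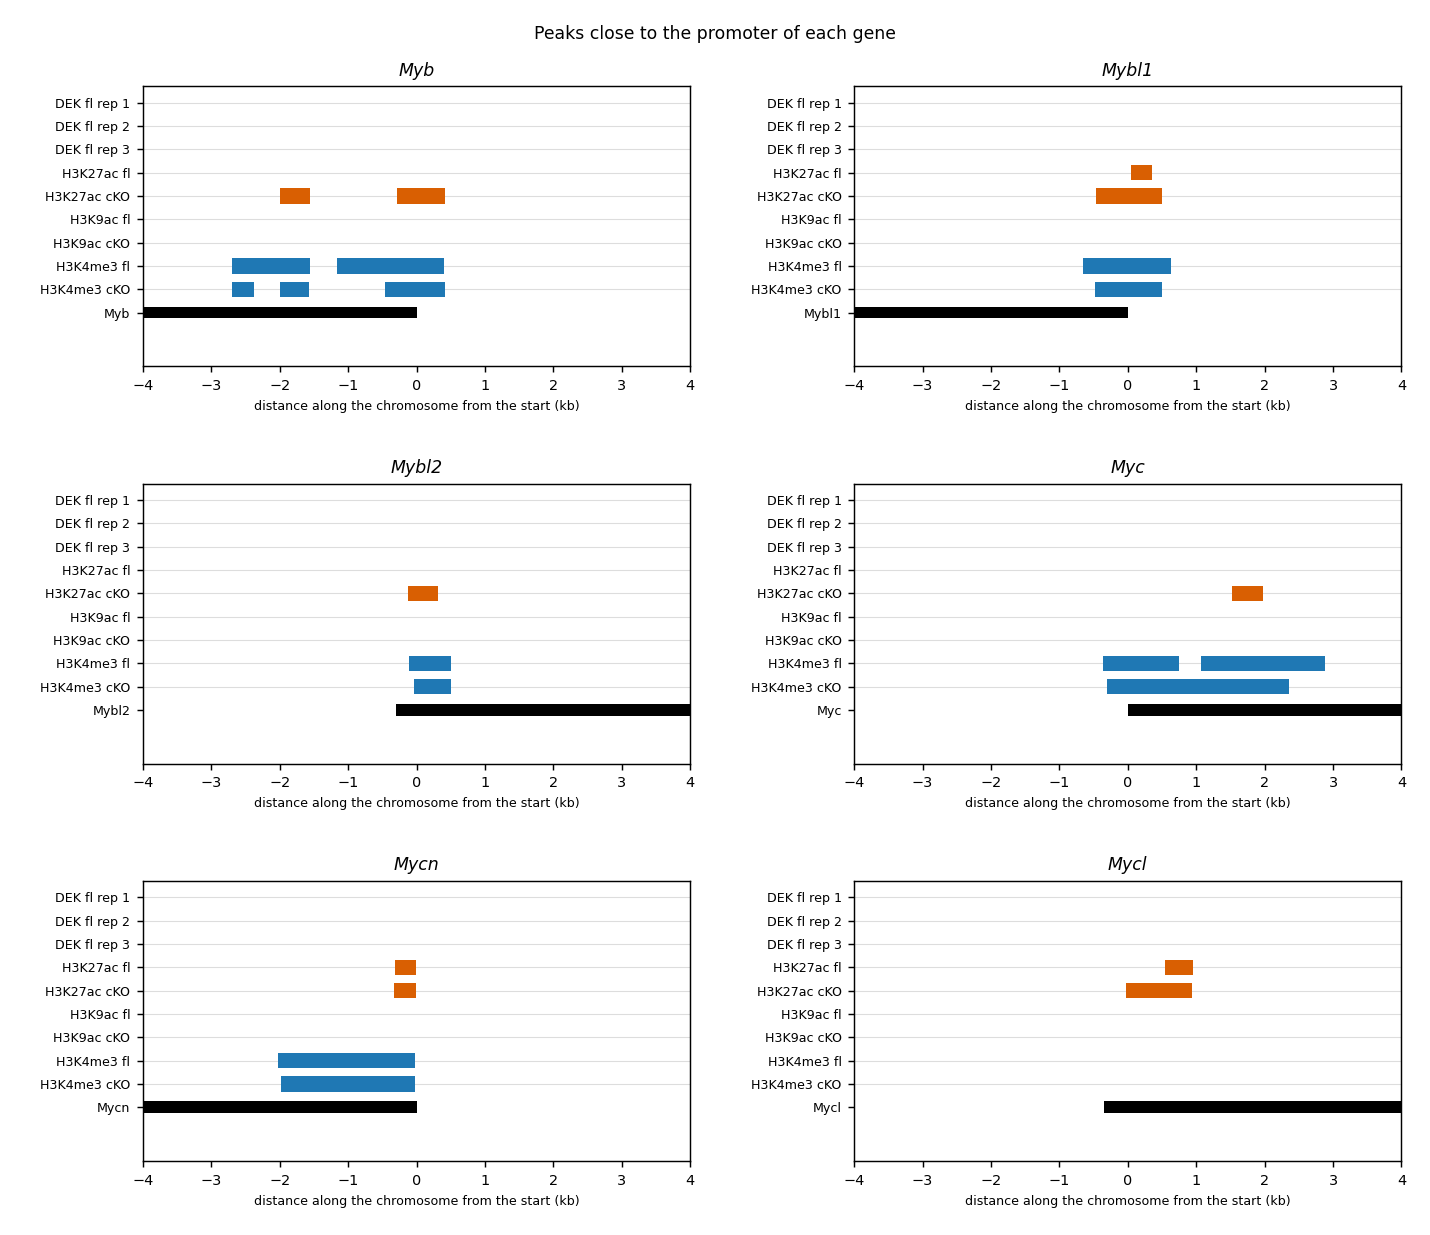
Bars show peaks of each list to scale, by distance along the chromosome in kb from the annotated start. For Myc and Mybl1 the point 0 is the annotated end under the H3K4me3 peak, and the black bar is the gene. H3K27ac (orange) lies over the starts of Myb and Mybl2 in the cKO row only, and Mycl has H3K27ac in both rows with no H3K4me3 (blue).

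**Figure D3:**
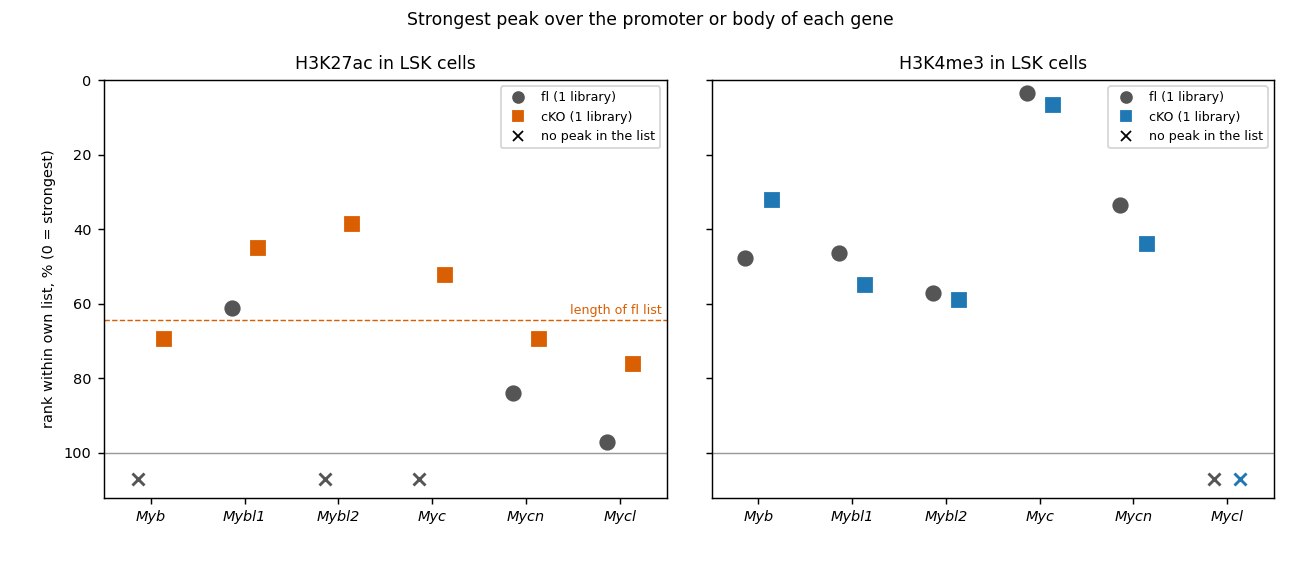
The strongest peak over the promoter or body of each gene is placed by its rank within its own list in percent (0 is strongest) for fl (grey) and cKO (coloured), 1 library each, and a cross means no peak. The dashed line is the length of the fl H3K27ac list. H3K27ac ranks run from 38.7% to 97.04%, while the Myc H3K4me3 peaks stand at 3.39% in fl and 6.73% in cKO.

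The flanks held few acetylated places besides the starts of other genes. Within 100 kb of the 6 genes there were 15 H3K27ac regions in all, 6 in both lists (40%, against 51.5% of all 17662 regions), 9 in cKO only (60%, against 40.9%) and 0 in fl only (7.62%). With lists of equal length 3 regions were shared, 3 were found in fl alone and 3 in cKO alone, so the higher number in cKO only was lost. The shares over all regions at equal length are not given here. Of the 15 regions of the full lists, 8 lay in the flanks (3 in both and 5 in cKO only). Windows of this size often hold a peak: 73.1% of all genes had one in fl and 86.3% in cKO, beside 4 and 6 of the 6 members.

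Around Mybl1, the start of Vcpip1, a deubiquitinase gene, had H3K27ac in both lists (ranks 5757 of 10494 and 3813 of 16331), and the start of the kinase gene Sgk3 had it in cKO only (rank 14758). Around Mycl, the start of Mfsd2a, a lipid transporter gene, had it in cKO only (rank 11176), while a place inside Mfsd2a, 39.8 kb from Mycl, had it in both. The start of the tRNA modification gene Trit1, 14.1 kb from Mycl, had H3K27ac in cKO only (chr4:123016542-123016908, rank 6976, fold 12.8) and H3K4me3 in fl only (rank 9811 of 10514, fold 6.06).

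The Myc flank showed the same pair of calls at 1 place. At the low-coordinate end of the long non-coding RNA gene Pvt1, 47.4 kb from Myc, H3K27ac was in cKO only (chr15:62037753-62038083, rank 12540, fold 8.25) and H3K4me3 in fl only (chr15:62037747-62038214, rank 7935 of 10514, fold 8.58). The Pvt1 H3K27ac peak ranked below the 10494 strongest cKO peaks and was lost with lists of equal length, while that at Trit1 was kept. The Pvt1 place is named after its values were seen. Trit1 and Pvt1 were the 2 H3K4me3 regions of fl only in these windows (16.7%, against 9.65% of all regions). The other 9 of 12 H3K4me3 regions were in both lists (75%, against 84.2% of all regions), and 1, near Mycn and close to the foot of the list (rank 10048 of 10159), was in cKO only (6.15% of all regions).

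The Mycn flank held 1 H3K27ac peak outside genes, 31.2 kb away, in cKO only (chr12:12904579-12904881, rank 14782, fold 6.75). The flanks of Myb held no H3K27ac and no H3K4me3 in either list. Ahi1, the protein-coding neighbour 44.5 kb from Myb, had H3K27ac and H3K4me3 at its promoter in both lists, at a place more than 100 kb from Myb.

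**Figure D4:**
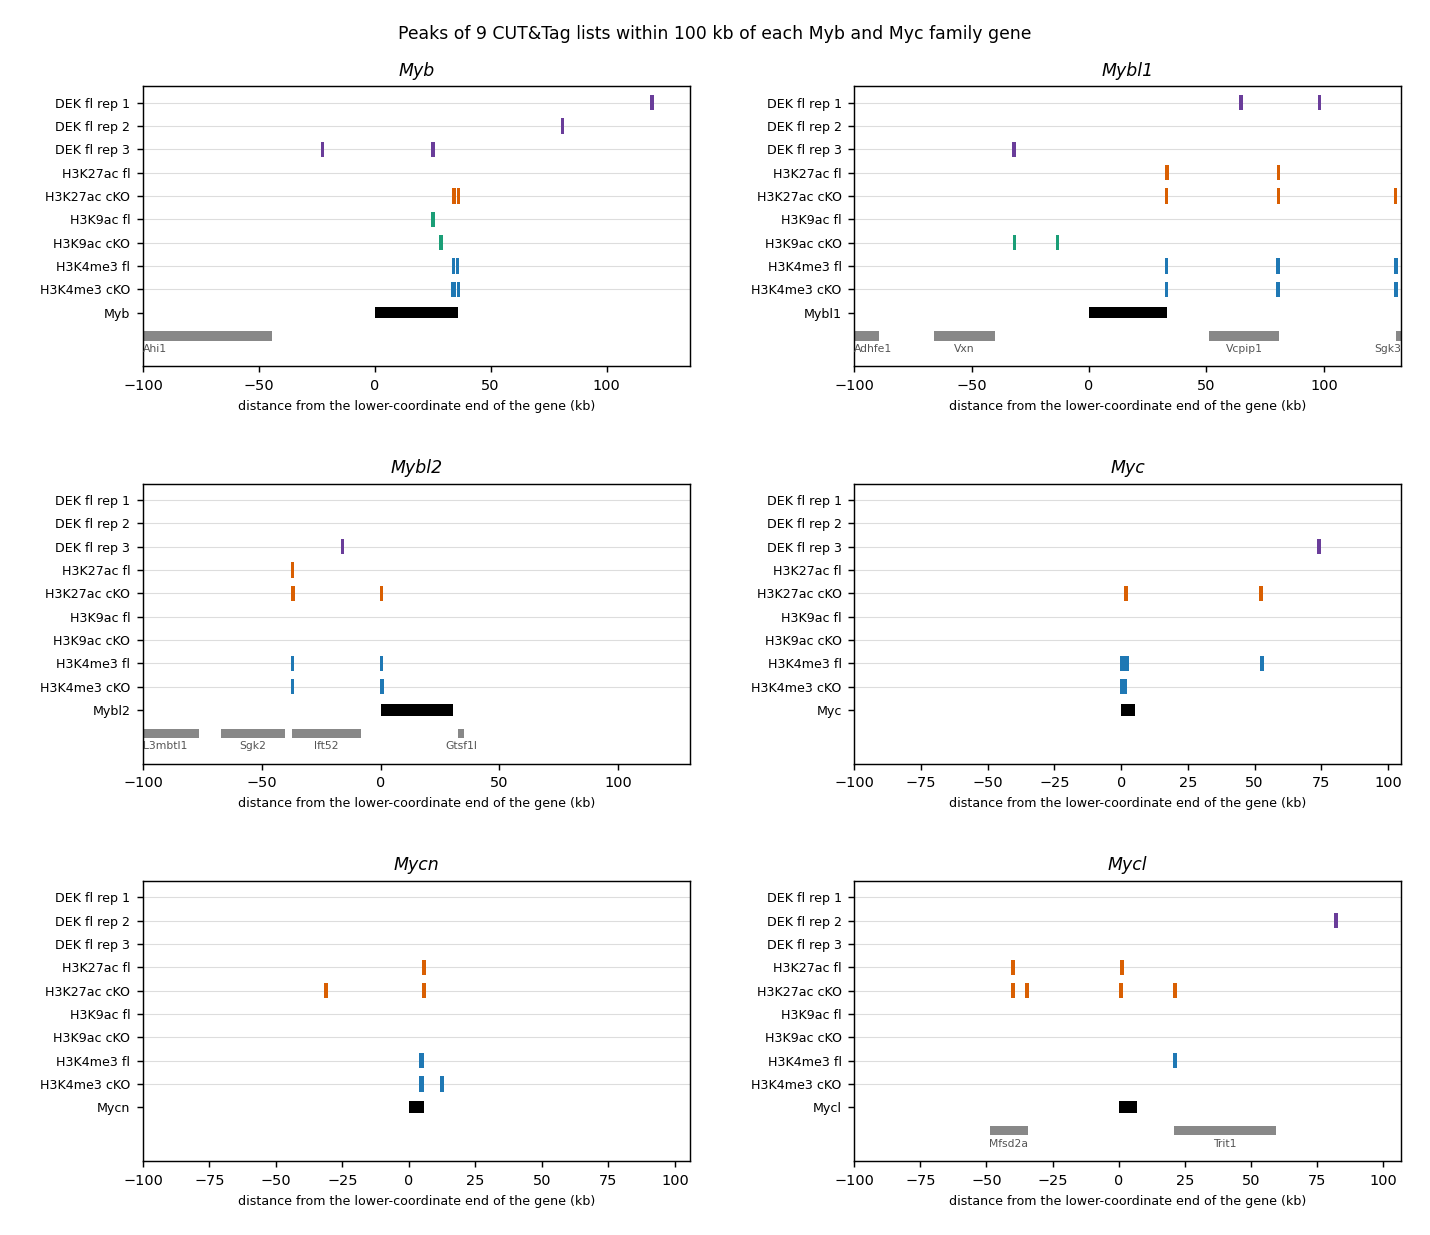
Peaks of the 9 lists are drawn by distance in kb from the lower-coordinate end of each gene, at least 1.5 kb wide so that they can be seen, with the gene in black and protein-coding neighbours in grey. Coloured rows are DEK (purple), H3K27ac (orange), H3K9ac (green) and H3K4me3 (blue). The 10 DEK peaks lie at 10 different places, and the Myb flanks carry no orange or blue.

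DEK peaks were scattered in the windows and none lay at a start. The labels name DEK for all 3 libraries. The row names inside the replicate 3 list differ from those of replicates 1 and 2, with a Flag stem in place of a DEK stem and a duplicate-removal stem shared with the H3K9ac lists. Whether that library was made with the same antibody, or against DEK, cannot be told from the labels and the list, and its peaks are given as those of the library labelled DEK replicate 3. Replicates 1, 2 and 3 had 3, 2 and 5 peaks over the 6 windows, and 2, 2 and 4 members had at least 1, where 17.8%, 18.6% and 40.1% of all genes did. In any library 5 members had one (55.7% of all genes), and 0 had one at the start (0.827%). The 10 peaks formed 10 regions, each seen in 1 library. Over the genome 488 of 9685 regions were seen in at least 2 libraries (5.04%). Mycn had 0 DEK peaks in all 3 lists.

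The 1 peak of these lists inside a member lay in Myb, in the library labelled DEK replicate 3 (chr10:21149926-21150155, 230 bp, 10.8 kb from the start, fold 9.46, −log10 q 11.4, rank 601 of 6147). It overlapped an H3K9ac peak of fl HSC by 189 bp (chr10:21149967-21150209, fold 5.43, −log10 q 4.57, rank 568 of 2172). Neither replicate 1 nor replicate 2 had a peak there. A DEK peak in any library over the start or body was found for 12.7% of all genes.

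The library labelled DEK replicate 3 had a second peak of equal rank 31.7 kb from Mybl1 (chr1:9635393-9635686), which overlapped an H3K9ac peak of cKO HSC by 204 bp (chr1:9635483-9635816, fold 9.62, −log10 q 11.4, rank 319 of 3431). These 2, both from that library, were the only peaks of the 3 DEK lists in the windows with a −log10 q of at least 5, and the only ones on a peak of another list. Over the whole list, 6.25% of replicate 3 peaks overlapped fl H3K9ac and 8.48% cKO H3K9ac. Without replicate 3 the windows held 5 DEK regions. Whether DEK binds these places was not tested, since no DEK library from cKO cells was analysed.

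The other 8 DEK peaks had a −log10 q from 1.96 to 4.63. Those near Myb lay 83.3 kb (replicate 1), 44.7 kb (replicate 2) and 22.3 kb (replicate 3) from the gene. Replicate 1 had 2 near Mybl1, at 31.5 and 64.9 kb. Replicate 3 had 1 near Mybl2, inside Ift52, and 1 near Myc, 68.9 kb away inside Pvt1, and replicate 2 had 1 near Mycl, at 75.0 kb.

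H3K9ac was absent from the starts of all 6 genes in both lists, as it was from nearly all genes (0.521% had it in fl and 0.868% in cKO). In the windows there was 1 fl peak and 3 cKO peaks, with 0 shared. Over the genome 6.12% of H3K9ac regions were in both lists, 35% in fl only and 58.9% in cKO only. Besides the 2 named above, the cKO list had a peak inside Myb (rank 2043 of 3431) and 1 at 13.3 kb from Mybl1. Both stood at the lowest −log10 p of the cKO list (5.08). Over all genes, 23.1% had an H3K9ac peak in such a window in fl and 33.9% in cKO, beside 1 and 2 of the 6 members.

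Genes that work with MYB and MYC were then read by list, 68 genes in 5 lists. H3K27ac at the start was in both lists for 31 of them (45.6%, against 22.3% of all genes). It was in cKO only for 26 (38.2%, against 21.7%) and in fl only for 0 (against 0.361%). The same shares of all genes stand behind each of the 5 lists. Most of these 68 genes carry H3K4me3, and among all such genes the cKO-only share was 33% and the share in both 48.9%. H3K4me3 was in both for 58 of the 68, against 42.9% of all genes. A DEK peak at the start was found for 0, where 0.827% of all genes had one.

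The MYC dimer network list held Max, genes of factors that bind MAX, and Mlx, Mlxip and Mlxipl. Of its 10 genes 5 had H3K27ac in both and 5 in cKO only. The latter were Mxd4 (fold 11.3, rank 3808 of 16331), Mxi1 and Mnt, which dimerise with MAX and repress, Mga, which also binds MAX (rank 15237), and Mlxipl, a glucose-responsive factor (rank 15237). Among MYC cofactors and turnover genes 10 of 15 were in both. The 5 in cKO only were Ruvbl1 and Ruvbl2, a pair of ATPases of chromatin complexes (ranks 6793 and 13851), Wdr5 (7825), Zbtb17, the partner through which MYC represses (9519), and Bin1 (10115). Of 16 MYC target genes 8 were in both and 4 in cKO only, which were Srm and Odc1 of polyamine synthesis (ranks 4191 and 6092), Tert (13851) and the cap-binding gene Eif4e (14078). With lists of equal length Mga, Mlxipl, Ruvbl2, Tert and Eif4e were no longer in cKO only. Mlxipl, Bin1 and Tert had no H3K4me3 at the start in either list.

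Among MYB partners and MuvB genes 8 of 15 were in both and 6 in cKO only. These were Kmt2a (fold 12.7, rank 2827), the cell cycle factor Foxm1 (fold 12.2, rank 4453), the MuvB subunit Lin9 (9480), Men1 (9519), Tfdp1, the E2F partner (9846), and Cebpb (11729). Cebpb was no longer in cKO only with lists of equal length. Of the 12 MYB target genes of blood, 0 had H3K27ac at the start in fl, against 22.6% of all genes. In cKO 6 did (50%, against 43.9%), which were Bcl2 (fold 12.98, rank 4006), Ccnb1 (6070), Kit (8816), Cebpa (10441), Cd34 (12366) and Gfi1 (12433), and all 6 had H3K4me3 in both lists. With lists of equal length 4 of the 6 stayed in cKO only, and Cd34 and Gfi1 were lost. Of the 12 genes, 6 had H3K4me3 in both lists and 4 in neither. Mpo had it in fl only (rank 8717 of 10514) and Lmo2 in cKO only (rank 10011 of 10159). With lists of equal length, 18 of the 68 genes were cKO only (against 11.4% of all genes) and 30 in both (against 20.7%). The ubiquitin ligase gene Huwe1 was the 1 gene in fl only, where 1.92% of all genes were.

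**Figure D5:**
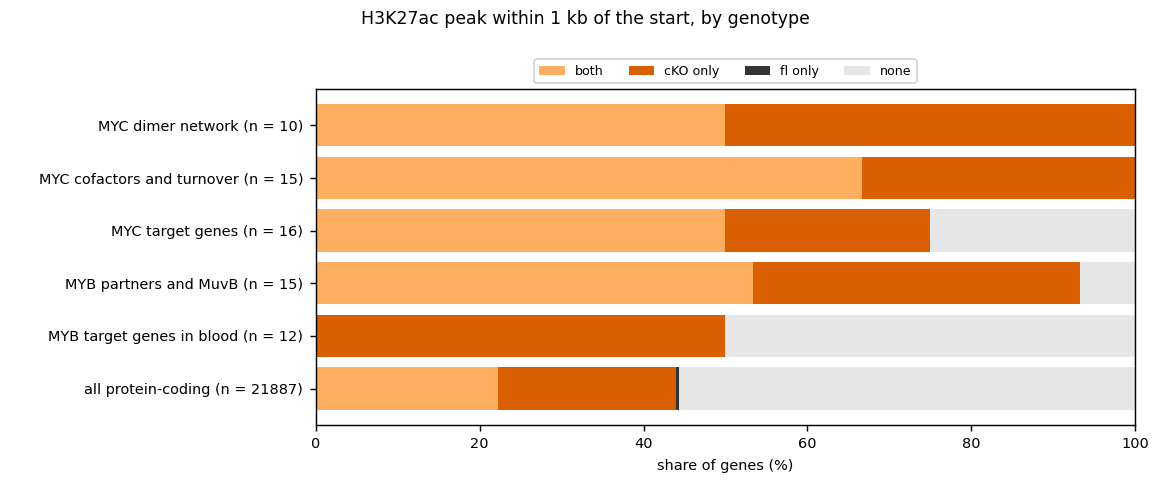
Bars give the share of genes in each list, in percent, by whether an H3K27ac peak lay within 1 kb of the start in both LSK lists, in cKO only, in fl only or in neither. The MYB target genes have 0 of 12 in both, where the other lists have 50% to 66.7% and all genes 22.3%. H3K4me3 was in both lists for 6 of these 12. In the other lists it was for 9 of 10 (dimer network), 14 of 15 (cofactors), 14 of 16 (MYC targets) and 15 of 15 (MYB partners).

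The gate was read from H3K4me3 at marker genes. Of 15 stem and progenitor markers 9 had it in both LSK lists, among them Kit, Cd34, Flt3 and Meis1, 2 each in fl or cKO only, and in neither list Ly6a and Slamf1, which encode the gate markers Sca-1 and CD150. Markers of T cells, B cells, endothelium, stroma and other tissues (4 each) had 0 in either list, 2 of 5 erythroid markers (Klf1 and Epor) had it in both, and Hbb-bt and the myeloid S100a8 in cKO only. H3K27ac in cKO only was found for 7 of the 15 stem and progenitor markers (46.7%), against 21.7% of all genes. Among genes with H3K4me3 in both lists, as for 9 of these 15, the cKO-only share was 33%. Kit and Cd34 of the 7 were also counted among the MYB target genes above. These marker counts were not repeated with lists of equal length. H3K27ac in cKO only was also found for 1 T cell, 1 endothelial, 2 stromal and 1 other-tissue marker of 4 each. Of the B cell (4), mature myeloid (5) and erythroid (5) markers 0 had it in cKO only. The part of other cell types, and of list length, in the cKO-only calls at the MYB and MYC genes was not tested.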

How the data were processed

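Peak lists of 9 CUT&Tag libraries were used. MACS2, Picard, Bowtie2 and the build mm10 are named per the submitters' processing notes, without versions, control or threshold. The authors called peaks per library. Each deposited row gives a score (10 times the −log10 p, truncated), a fold enrichment (a ratio over the caller's background in that library) and the −log10 of a p-value and q-value. The lists hold no read counts, so the depth of each library is unknown. After 16 mitochondrial rows and 11 DEK rows that broke the format of their own list were left out, the DEK lists held 2054, 2111 and 6147 peaks. None of the 11 lay in the windows. The H3K27ac lists held 10494 (fl) and 16331 (cKO) peaks, H3K9ac 2172 and 3431, H3K4me3 10514 and 10159.

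Coordinates are mm10, counted from 1. Starts came from RefSeq promoter entries for GRCm38.p6 (17492 of 21887 protein-coding genes), and both annotated ends were used for the others. A peak was at a promoter within 1 kb of the start, in the gene body, or in the flank up to 100 kb. Peaks that shared 1 bp or more formed a region. Python 3.11.15, numpy 2.4.6, pandas 2.3.3 and matplotlib 3.10.9 were used, and joining was checked on simulated peaks. Exons and introns were not told apart.

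The members and lists were chosen with earlier results of these data known. Named genes were all 6 members, neighbours whose start carried a peak, and list genes with H3K27ac or H3K4me3 in 1 genotype only, up to 8 per list by highest −log10 p. Alternatives were a promoter width of 2 kb, a flank of 50 kb, a −log10 q of at least 5, lists of equal length, a stricter overlap, the irregular rows kept, and leaving out each DEK replicate. Counting the gene body, and list length for the members' states, were added after the data were seen. The search for short sequences before the starts was not among the planned results.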

Additional observations from a re-analysis of the deposited data

How the results depend on the processing

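Of 128 values recomputed under an alternative, 108 stayed within 1.5 times the reported count. Some of the 108 could not move. They include the 20 values with the irregular rows kept, since none of those rows lay in the windows. The equal-length cut of the cKO H3K9ac list fell among peaks tied at its lowest −log10 p (5.08). Tied peaks were kept by chromosome order, among them the peak inside Myb and that 13.3 kb from Mybl1. The H3K9ac values at equal length thus rest on that order. Lists of equal length changed the H3K27ac results: the members' regions were then 3 in both, 3 in fl only and 3 in cKO only, in place of 6, 0 and 9, their promoters 1 in both, 2 in fl only and 1 in cKO only, in place of 3, 0 and 2, and the related genes in fl only 1 in place of 0. At a −log10 q of at least 5 the windows held 0 DEK peaks in replicates 1 and 2 and 2 in replicate 3 (2 regions), 0 H3K9ac peaks in fl (0 fl-only regions) and 1 in cKO (1 cKO-only region), and 0 cKO-only H3K4me3 regions in place of 1. With flanks of 50 kb DEK replicates 1 and 2 had 1 peak each and the windows 6 DEK regions in place of 10. Leaving out 1 DEK replicate at a time left 5 to 8 regions. The number seen in more than 1 library had to stay 0, since each of the 10 regions was in 1 library. A promoter width of 2 kb, the gene body counted with the promoter, the irregular rows kept and the stricter overlap moved none of the counts past 1.5 times. No paired analysis was possible because only the DEK libraries carry replicate numbers and they form a single group. Depth is unknown, so a missing peak shows only that none was called.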

Other observations

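A distant enhancer cluster that drives Myc in blood cells is known from other work, so H3K27ac regions outside the windows above and up to 2 Mb on either side of Myc were read, a choice made after the data were seen. Of 19 regions 13 were in both lists (68.4%, against 51.5% of all regions), 2 in fl alone and 4 in cKO alone. On the lower-coordinate side there were 12, of which 7 were shared, 1 was found in fl alone and 4 in cKO alone. On the higher-coordinate side, where Pvt1 lies, there were 7 regions between 0.531 and 1.57 Mb from Myc, of which 6 were in both lists and 1, at 1.44 Mb, in fl only. The nearest, chr15:62521446-62522293, stood in the top 4.64% of the fl list and the top 4.997% of the cKO list. The farthest, chr15:63560933-63561311, stood at 73.2% and 55.6%. Between 1.6 and 2 Mb on this side there were 0 H3K27ac regions in either list. None of the 7 lay at the start of a protein-coding gene, on a DEK or H3K9ac peak or on H3K4me3. On the lower-coordinate side, chr15:60398183-60398744, 1.59 Mb away, was in the top 1.65% in fl and 1.38% in cKO. There chr15:60353517-60354313, 1.63 Mb away, was also in both lists (top 3.46% in fl and 2.96% in cKO). It lay on a peak of the library labelled DEK replicate 3. A cKO-only region on this side, chr15:60822966-60823350, lay on H3K4me3 of both lists. These places were not tied to Myc by any measurement here, and repeated sequence was not filtered. Whether any of them belongs to the known cluster was not tested.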
